A study of Mus musculus with 7 samples.

Results

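N6-methyladenosine (m6A) is a methyl mark on adenosines inside mRNA. It is placed by a nuclear methyltransferase complex (the writers), bound by YTH domain proteins (the readers) and removed by demethylases (the erasers). The writers Mettl3, Mettl14 and Wtap, the readers Ythdf1, Ythdf2, Ythdf3, Ythdc1 and Ythdc2, and the erasers Alkbh5 and Fto were followed by symbol, and all 10 were found, once each, among the 25912 listed entries and passed the filter on low values. In mammals, several of these proteins are known to be needed for oocyte growth and maturation, where maternal mRNA is stored, translated and degraded while transcription is silent.

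The data were 7 Smart-seq2 libraries of 10 mouse oocytes each. They comprised 2 libraries of oocytes at the germinal vesicle stage (GV, the prophase arrest), 3 of metaphase II oocytes (MII, the mature egg) cultured with DMSO, and 2 of MII oocytes treated with BYBX, a fluorescent ligand that binds RNA G-quadruplexes (rG4s, folds made of stacked guanines). The labels give the genotype as "Control" for GV and MII with DMSO and "Treat" for BYBX, and the treatment of GV as "NO", whereas the study's methods give GV controls the same DMSO. All oocytes came from a C57BL/6 background, from 4-week-old females injected with PMSG 44 h before collection. Oocytes called MII had 16 h of culture in the study's spindle experiments, though not in all of its experiments. A dose of 1 μM BYBX was used for the translation efficiencies to which these libraries contributed. The methods for the RNA libraries name neither the hours nor the dose, nor whether oocytes were selected by their polar body. In the paper, fewer oocytes emitted a polar body as the dose of BYBX rose, and those that did had abnormal spindles. Meiotic stage and treatment thus cannot be told apart in the BYBX libraries. No label says whether libraries of a group came from separate animals or cultures, so p-values measure the spread between these libraries, which may be technical.

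Levels were deposited as FPKM (fragments scaled by transcript length and library size), scaled by the authors to a spike-in of known amount, so a level is set by the spike-in and not by the share of a message in the library. Each library pools its oocytes, and a change in all of them and a larger change in some cannot be told apart. The priming was with oligo-dT, and a change of poly(A) tail length and a change of mRNA amount cannot be told apart in these values. The summed FPKM was 402113 to 489569 in GV, 109732 to 127254 in MII with DMSO and 201482 to 246710 with BYBX. Oocyte markers were present in every library, with 10 of 10 markers over 1 FPKM in at least 1 library and a summed level of 12003 to 14658 FPKM in GV, 2657 to 3463 FPKM in MII with DMSO and 6293 to 7626 FPKM with BYBX. Markers of cumulus and granulosa cells summed to 5.64 to 11.8 FPKM in GV, 1.56 to 2.03 FPKM in MII with DMSO and 2.64 to 2.94 FPKM with BYBX, and 10 of the 12 were under 1 FPKM in every library. Erythrocyte markers reached at most 1.13 FPKM in sum and leukocyte markers at most 0.125 FPKM. The part of the surrounding cells in the differences below was not tested.

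Of the 10 m6A genes, 8 fell between GV and MII with DMSO and none rose, by limma on log2(FPKM + 1) at a Benjamini-Hochberg adjusted p under 0.05. Across the 9202 tested entries, 88.3% were lower in MII with DMSO and 0.272% were higher. In BYBX-treated MII oocytes 6 of the 10 were higher than in MII with DMSO and none was lower, beside 65.2% and 0.0326% of all tested entries. Against GV, BYBX-treated MII oocytes had 6 of the 10 lower and none higher, where the shares over all entries were 69.2% and 0.315%. The median log2 fold change of the 10 genes was -1.65 for MII with DMSO against GV, 0.73 for BYBX against DMSO and -0.97 for BYBX against GV, close to the medians over all tested entries of -1.83, 0.84 and -0.99. With the filter on low values used here, the counts and medians of the 10 genes were thus near those of all tested entries. The genes differed mainly from each other. The shares over all entries depend on that filter. With no filter, 12025 of 18497 entries fell from GV to MII with DMSO (median -0.68). For BYBX against DMSO, 5782 were then higher (median 0.27). Of the 10 genes, 8 and 5 were called in these directions. The comparisons share libraries and are not independent of each other.

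**Figure D1:**
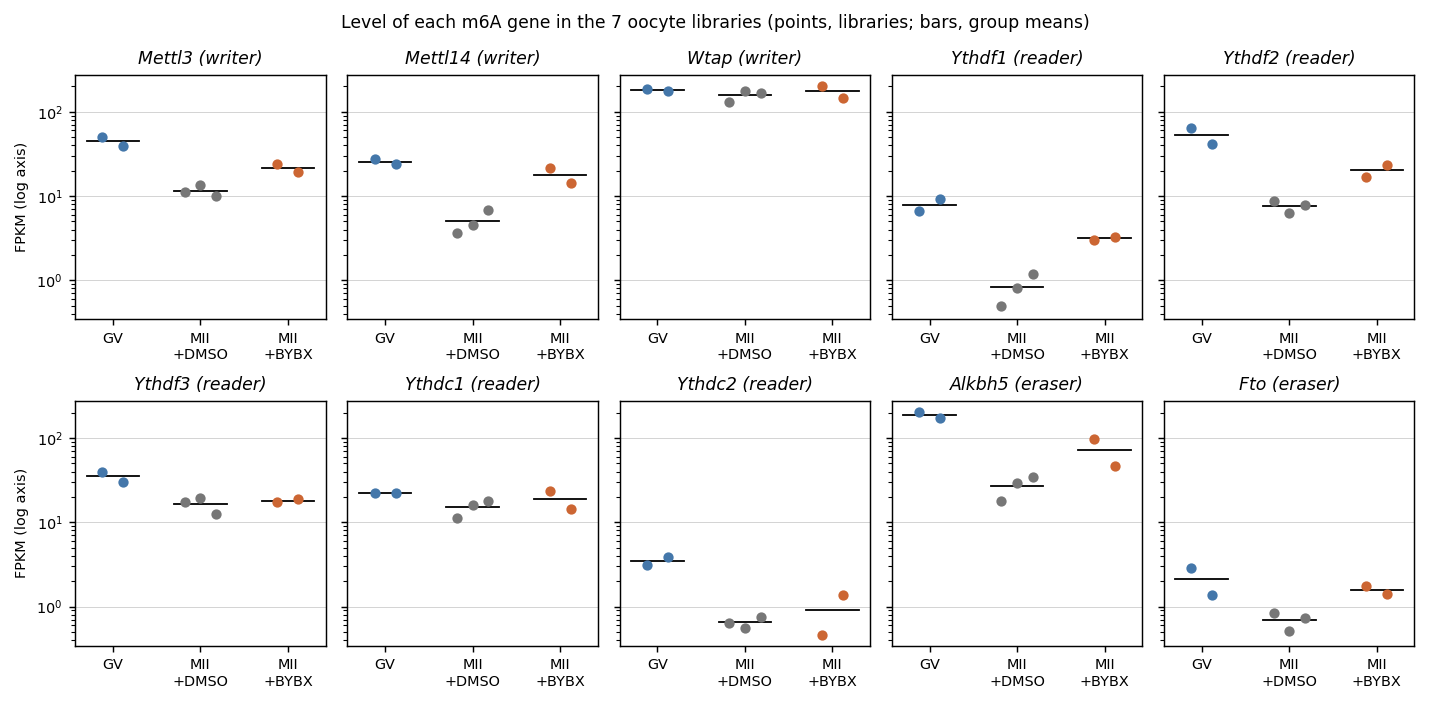
FPKM on a log axis for each m6A gene in the 7 libraries, with a point for each library and a bar at the group mean (GV, n = 2; MII with DMSO, n = 3; MII with BYBX, n = 2). Wtap stayed between 129 and 204 FPKM, whereas Alkbh5 went from 174 or more in GV to 34.2 or less in MII with DMSO, with the BYBX-treated libraries between.

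**Figure D2:**
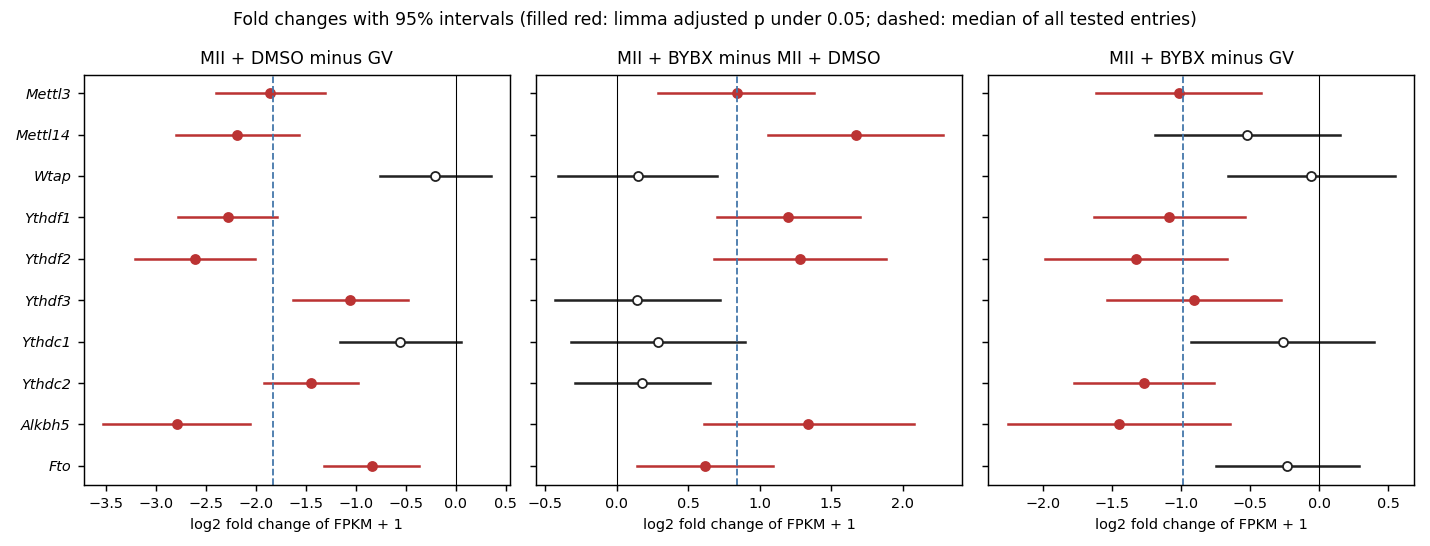
The log2 fold change of FPKM + 1 for each gene in the 3 comparisons with its 95% interval from limma, filled red where the adjusted p was under 0.05 and open otherwise. The dashed line is the median over all 9202 tested entries (-1.83, 0.84 and -0.99), and Wtap lies to the right of it in the comparisons with GV and to the left in the comparison of BYBX with DMSO.

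Alkbh5 and Wtap were the most abundant of the 10 messages in GV oocytes, at 189 ± 21.1 and 179.7 ± 6.95 FPKM (mean ± SD, n = 2), and their libraries overlapped. Ythdf2 (52.6 FPKM), Mettl3 (44.5 FPKM) and Ythdf3 (35.2 FPKM) followed, each overlapping its neighbour in the order. Mettl14 (25.6 FPKM), Ythdc1 (22.2 FPKM), Ythdf1 (7.91 FPKM), Ythdc2 (3.51 FPKM) and Fto (2.11 FPKM) came after them, with no overlap between neighbours. In MII with DMSO only Wtap stood apart at the top, at 157 ± 24.7 FPKM (n = 3), and Alkbh5 at 27.2 FPKM overlapped Ythdf3 at 16.5 FPKM, which overlapped Ythdc1 at 15.1 FPKM. Fto, Ythdc2 and Ythdf1 were at most 1.19 FPKM in these 3 libraries and each overlapped its neighbour. With BYBX, Wtap led at 175 FPKM and Alkbh5 came next at 72.8 FPKM, clear of the rest, while Mettl3, Ythdf2, Ythdc1, Ythdf3 and Mettl14 lay between 17.9 and 21.4 FPKM with overlapping neighbours.

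Mettl3 (chr14:52294841-52305128, minus strand; gene positions are on GRCm38) is the catalytic subunit of the m6A writer and Mettl14 (chr3:123368297-123386108, minus strand) its partner that helps to bind the RNA, and the mRNA of both fell during maturation. Mettl3 measured 49.5 and 39.5 FPKM in GV, 11.1, 13.4 and 10.1 FPKM in MII with DMSO, and 23.7 and 19.1 FPKM with BYBX. The 3 groups did not overlap, with BYBX in the middle. Its mean was 3.85-fold below GV in MII with DMSO (log2 fold change -1.86, SE 0.25, limma adjusted p = 9.0e-06) and 1.85-fold higher with BYBX than with DMSO (0.84, SE 0.25, adjusted p = 0.01). The BYBX-treated libraries remained 2.08-fold below GV (-1.02, SE 0.28, adjusted p = 0.0052). The difference between BYBX and DMSO was not called without BYBX library 1 (0.69, adjusted p = 0.097) or with the replicate number as a block (0.75, adjusted p = 0.061).

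Mettl14 was at 27.3 and 24.0 FPKM in GV, 3.61, 4.51 and 6.85 FPKM in MII with DMSO, and 21.6 and 14.3 FPKM with BYBX. Every GV library was above every BYBX library and every BYBX library above every DMSO library. The mean was 5.13-fold below GV in MII with DMSO (-2.19, SE 0.28, limma adjusted p = 5.8e-06), and 3.59-fold higher with BYBX than with DMSO (1.67, SE 0.28, adjusted p = 1.8e-04). Among the 10 genes this was the largest log2 difference between the MII groups, at the 78.3 percentile of all tested entries. BYBX-treated oocytes held 70.0% of the mean GV level, a difference from GV that was not called (-0.52, 95% interval -1.19 to 0.15, adjusted p = 0.15).

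Wtap (chr17:12966796-12994169, minus strand), the adaptor that anchors the Mettl3 and Mettl14 pair in nuclear speckles, did not follow them. Its libraries read 185 and 175 FPKM in GV, 129, 177 and 165 FPKM in MII with DMSO, and 204 and 146 FPKM with BYBX, and all groups overlapped. No comparison was called: the log2 fold change was -0.21 for MII with DMSO against GV (95% interval -0.76 to 0.35, limma adjusted p = 0.45), 0.15 for BYBX against DMSO (-0.41 to 0.70, adjusted p = 0.61) and -0.06 for BYBX against GV (-0.66 to 0.55, adjusted p = 0.87). Against all tested entries, the change of Wtap from GV to MII with DMSO was at the 96.1 percentile and that from DMSO to BYBX at the 7.7 percentile. Within a library Wtap stood at the 97.6 to 98.0 percentile of levels in GV, 99.4 to 99.5 in MII with DMSO and 99.0 to 99.1 with BYBX. The gain in rank was thus without a called change of its own spike-in scaled level.

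The cytoplasmic polyadenylation element, a U-rich site near the end of many maternal mRNAs through which CPEB proteins lengthen the tail during maturation, was looked for because the libraries read polyadenylated RNA. The letters TTTTAT and TTTTAAT were searched on the sense strand in the last 200 bases of the annotated transcripts (GENCODE vM21, GRCm38). They occurred in the longest transcript of 4 of the 10 genes (Mettl14, Ythdf2, Ythdc1 and Fto), and in 30.0% of the longest transcripts of 8747 tested genes. For Wtap the match was in the 3′ UTR of shorter isoforms and not of the longest. The matches of Mettl14 (chr3:123368326-123368351, minus strand, starting 45 bases from the transcript end), a Wtap isoform (chr17:12966880-12966905, minus strand, 97 bases from the end) and Ythdf2 (chr4:132184998-132185023, minus strand, 102 bases from the end) are shown as examples from a message with no called change (Wtap) and from messages that fell and were higher with BYBX, with the searched letters in capitals:
Mettl14: gtaactccttTTTTATtttgctataa
Wtap: gttactaagtTTTTATgaactgttgt
Ythdf2: ctgccaaactTTTTATtataaaatat
Whether any of these sites is used was not measured.

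Ythdf1, Ythdf2 and Ythdf3 are close paralogs that bind m6A in the cytoplasm, and Ythdf2 is known for bringing marked mRNA to decay. Ythdf2 (chr4:132184912-132212303, minus strand) was the most abundant of them in GV, at 64.4 and 40.9 FPKM, and measured 8.81, 6.27 and 7.87 FPKM in MII with DMSO and 16.8 and 23.4 FPKM with BYBX. The groups did not overlap. Ythdf2 fell 6.88-fold from GV to MII with DMSO (-2.61, SE 0.28, limma adjusted p = 8.1e-07) and was 2.63-fold higher with BYBX than with DMSO (1.28, SE 0.28, adjusted p = 0.0013), still 2.62-fold under GV (-1.33, SE 0.31, adjusted p = 0.0018).

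Ythdf3 (chr3:16183212-16217037, plus strand) had smaller log2 differences. It was at 40.0 and 30.4 FPKM in GV, 17.4, 19.6 and 12.4 FPKM in MII with DMSO, and 17.3 and 18.8 FPKM with BYBX, so that both MII groups lay below GV and overlapped each other. The fall to MII with DMSO was 2.13-fold (-1.06, SE 0.27, limma adjusted p = 0.0021). The difference between BYBX and DMSO was not called (0.14, 95% interval -0.43 to 0.72, adjusted p = 0.64), and its place was the 7.5 percentile of all tested entries. The BYBX libraries were 1.95-fold below GV (-0.91, SE 0.29, adjusted p = 0.013), a call lost without GV library 1 (adjusted p = 0.10) or BYBX library 1 (adjusted p = 0.058).

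Ythdf1 (chr2:180904377-180920949, minus strand) was the least abundant of the 3 paralogs in every library, at 6.67 and 9.16 FPKM in GV, 0.489, 0.821 and 1.19 FPKM in MII with DMSO, and 3.03 and 3.30 FPKM with BYBX. It showed the largest ratio of FPKM means among the 10 genes, 9.48-fold below GV in MII with DMSO (-2.28, SE 0.23, adjusted p = 4.5e-07 by limma). BYBX-treated oocytes were 3.79-fold above DMSO (1.20, SE 0.23, adjusted p = 4.9e-04) and 2.50-fold below GV (-1.09, SE 0.25, adjusted p = 0.0020).

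The order of Ythdf2 and Ythdf3 differed between the stages. Of the summed FPKM of the 3 paralogs, Ythdf2 held 58.0% and 50.9% in GV, 32.9%, 23.5% and 36.6% in MII with DMSO, and 45.2% and 51.4% with BYBX. Ythdf3 held 36.0% and 37.8% in GV, 65.2%, 73.5% and 57.8% in MII with DMSO, and 46.6% and 41.3% with BYBX. Ythdf2 was thus above Ythdf3 in both GV libraries and below it in all 3 libraries of MII with DMSO, and the BYBX-treated libraries were divided. The log2 ratio of Ythdf2 to Ythdf3, which does not depend on the scale of a library, was 0.56 ± 0.18 in GV, -1.10 ± 0.50 in MII with DMSO and 0.14 ± 0.25 with BYBX. The groups did not overlap, but the exact two-sided permutation test cannot go below p = 0.1 with 2 libraries against 3, and both comparisons with DMSO gave that value (adjusted p = 0.42 over the 21 ratio tests).

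Ythdc1 (chr5:86804221-86836659, plus strand) is the nuclear reader known for its part in splicing and export of marked mRNA. It measured 22.4 and 22.1 FPKM in GV, 11.2, 16.2 and 17.7 FPKM in MII with DMSO, and 23.3 and 14.4 FPKM with BYBX. Both GV libraries were above all 3 DMSO libraries, and the BYBX libraries overlapped both groups. None of its differences was called, with -0.56 for MII with DMSO against GV (95% interval -1.16 to 0.05, limma adjusted p = 0.077), 0.29 for BYBX against DMSO (-0.32 to 0.90, adjusted p = 0.37) and -0.26 for BYBX against GV (-0.93 to 0.40, adjusted p = 0.45). An annotated lincRNA, Gm43055, overlaps its exons on the same strand, and reads of the overlap cannot be told apart.

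Ythdc2, an RNA helicase with a YTH domain known for its part at meiotic entry, was low throughout. It was at 3.13 and 3.89 FPKM in GV, 0.637, 0.563 and 0.746 FPKM in MII with DMSO, and 0.466 and 1.37 FPKM with BYBX. The BYBX-treated libraries enclosed the DMSO range and stayed below GV. Ythdc2 fell 5.41-fold from GV to MII with DMSO (-1.45, SE 0.22, limma adjusted p = 2.5e-05) and was 3.83-fold lower with BYBX than in GV (-1.27, SE 0.24, adjusted p = 4.7e-04). Only its GV mean was over 1 FPKM, so Ythdc2 passed the filter through GV, and these called falls are not independent of that. With no filter the limma adjusted p was 0.0021 and 0.01. The difference between the MII groups was not called (0.18, 95% interval -0.29 to 0.65, adjusted p = 0.48).

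Alkbh5 (chr11:60536381-60558512, plus strand) is the demethylase whose loss is best known from male germ cells, and its mRNA had the largest log2 fall of the 10 genes. The libraries read 204 and 174 FPKM in GV, 18.1, 29.2 and 34.2 FPKM in MII with DMSO, and 98.4 and 47.1 FPKM with BYBX. No groups overlapped, although the 2 BYBX-treated libraries were far apart. The mean was 6.95-fold below GV in MII with DMSO (-2.79, SE 0.34, limma adjusted p = 3.1e-06), 2.68-fold higher with BYBX than with DMSO (1.34, SE 0.34, adjusted p = 0.0036), and 2.60-fold lower with BYBX than in GV (-1.45, SE 0.37, adjusted p = 0.0038). The call for BYBX against DMSO was lost without BYBX library 1 (0.82, adjusted p = 0.082). The call against GV was lost without GV library 1 (-1.34, adjusted p = 0.063) and without BYBX library 2 (-0.93, adjusted p = 0.059).

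Fto (chr8:91313525-91668439, plus strand), which also acts on the cap-adjacent mark m6Am, was the least abundant of the 10 messages in GV. It measured 2.84 and 1.39 FPKM in GV, 0.829, 0.511 and 0.735 FPKM in MII with DMSO, and 1.77 and 1.42 FPKM with BYBX. The DMSO libraries were below all others, and GV and BYBX overlapped. Only the DMSO mean was under 1 FPKM, so Fto passed the filter through GV and BYBX, and its calls against DMSO are not independent of that. Fto fell 3.06-fold from GV to MII with DMSO (-0.84, SE 0.22, limma adjusted p = 0.0026, and 0.021 with no filter) and was 2.30-fold higher with BYBX than with DMSO (0.62, SE 0.22, adjusted p = 0.024). The second call was lost without BYBX library 1 (adjusted p = 0.097), without DMSO library 2 (0.089) and with no filter on low values (0.11). BYBX against GV was not called (-0.23, 95% interval -0.75 to 0.29, adjusted p = 0.41), but was called lower without GV library 2 (-0.57, adjusted p = 0.037). Exons of Fto overlap 4831440D22Rik and Gm45427 on the opposite strand, as those of Mettl3 overlap Tox4, and Smart-seq2 reads do not keep the strand.

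Since BYBX binds rG4s, the transcripts of the 10 genes were searched on the sense strand for 4 G runs, each 3 or more long and spaced by 1 to 7 bases. Of 36 protein-coding transcripts, 2 held such a motif, both of erasers. The annotated Alkbh5 transcript had one in the 5′ UTR (chr11:60538091-60538113, plus strand) and one in the 3′ UTR (chr11:60555426-60555447, plus strand), and 1 Fto isoform had one in its coding part (chr8:91441805-91441832, plus strand). The runs of G are in capitals:
Alkbh5 5′ UTR: GGGccGGGccGGGcgtctgaGGG
Alkbh5 3′ UTR: GGGGccGGGcctGGGGGctGGG
Fto coding part: GGGtaatgttGGGagtctcaGGGtGGGG
By the longest transcript of each gene, Alkbh5 was the single one of the 10 with a motif, and 18.7% of 8747 tested genes had one, 7.8% in the 5′ UTR and 9.3% in the 3′ UTR. A match describes the letters and not a fold.

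The sum of the 10 messages was 605 and 520.3 FPKM in GV, 202, 268 and 256 FPKM in MII with DMSO, and 410.1 and 289.5 FPKM with BYBX. The mean sum was 43.0% of GV in MII with DMSO and 62.2% with BYBX. Wtap made up 32.1% ± 2.2 of it in GV, 64.8% ± 1.1 in MII with DMSO and 50.1% ± 0.6 with BYBX, with no overlap between groups. Alkbh5 made up 33.6% ± 0.2, 11.1% ± 2.2 and 20.1% ± 5.5 in the same order. The m6A gene set thus held about equal parts of Wtap and Alkbh5 in GV and was mostly Wtap in MII with DMSO, with BYBX-treated oocytes between. The share of Mettl14 was 5.3% and 4.9% with BYBX, above the DMSO libraries (1.8%, 1.7% and 2.7%) and the GV libraries (4.5% and 4.6%).

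**Figure D3:**
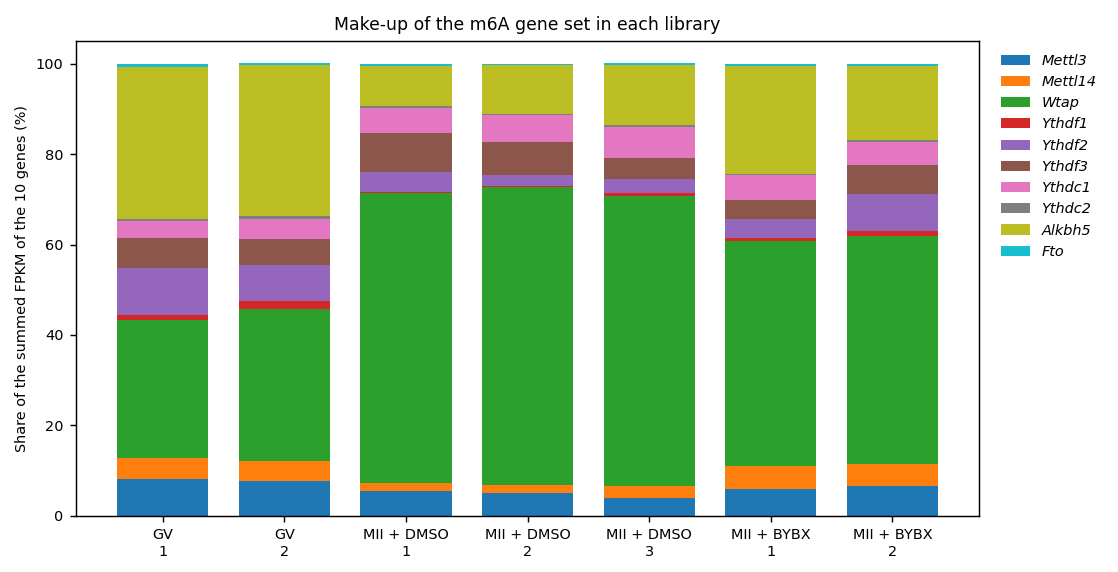
Share of each gene in the summed FPKM of the 10 m6A genes (%), as stacked bars for the 7 libraries. Wtap takes 30.5% and 33.6% in the GV libraries, 64.1% to 66.0% in MII with DMSO and 49.7% and 50.5% with BYBX, and Alkbh5 shrinks where Wtap grows.

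Ratios of 7 pairs of these genes were compared within libraries in 3 comparisons, 21 tests in all. The smallest p that the exact two-sided permutation test allows is 0.1 for 2 libraries against 3 and 0.333 for 2 against 2, so none could pass, and no adjusted p was below 0.42. Wtap was 3.73 and 4.42 times Mettl3 in GV, 11.6, 13.2 and 16.3 times in MII with DMSO, and 8.59 and 7.66 times with BYBX. The ratio was thus higher in both MII groups than in GV, with Mettl3 lower and no called change of Wtap. Mettl14 was 0.551 and 0.608 times Mettl3 in GV, 0.325, 0.335 and 0.679 times in MII with DMSO, and 0.911 and 0.747 times with BYBX. The partners of the heterodimer were closest to equal in the BYBX-treated libraries, while GV and DMSO overlapped. Ythdc1 was 7.14 and 5.69 times Ythdc2 in GV and 17.6, 28.9 and 23.8 times in MII with DMSO, and with BYBX the libraries gave 50.0 and 10.5 times, on either side of the DMSO range. Alkbh5 was 71.8 and 126 times Fto in GV, 21.9, 57.1 and 46.6 times in MII with DMSO, and 55.7 and 33.3 times with BYBX, with the MII groups overlapping below GV.

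**Figure D4:**
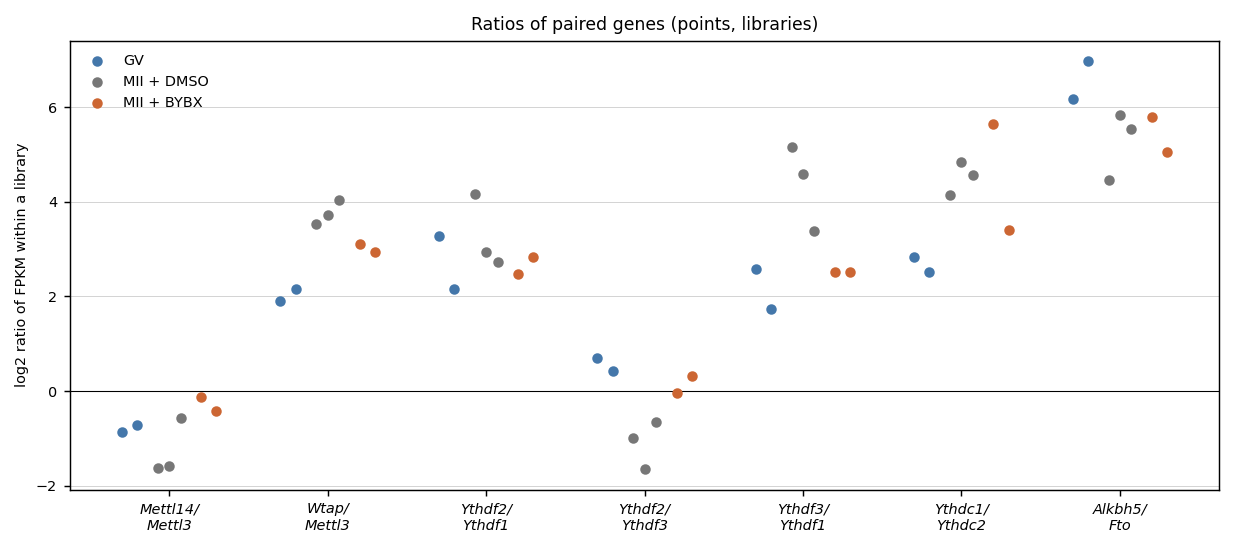
The log2 ratio of FPKM of paired m6A genes within each library, with a point for each library (GV, n = 2; MII with DMSO, n = 3; MII with BYBX, n = 2). Ythdf2 to Ythdf3 lies above 0 in GV, at 0.69 and 0.43, and below 0 in MII with DMSO, from -1.65 to -0.66.

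Whether a gene rose or fell depended on the scale on which libraries were set equal. Rescaled to the same total FPKM, the median change of all tested entries from GV to MII with DMSO became -0.56 in place of -1.83, and after centring each library on its median it became 0.47. The tested entries were then 2141 higher and 4557 lower with the same total, and 4494 higher and 2456 lower with centring, in place of 25 and 8127. Wtap was called higher in MII with DMSO than in GV on both scales (1.67 and 2.10, limma adjusted p = 2.1e-05 and 1.6e-05), as were Ythdc1 (1.23 and 1.75) and Ythdf3 (0.75 and 1.25). With the same total, Ythdf1 (-1.02), Ythdf2 (-0.83) and Alkbh5 (-0.94) were called lower, and with centring none was and Ythdc2 (0.86) and Fto (1.46) were called higher as well. Ythdc2 and Fto were under 1 FPKM in every library of MII with DMSO, and centring followed the pseudocount of 1, which weighs most on such low values. With the same total neither was called (-0.34 and 0.18, limma adjusted p = 0.25 and 0.44).

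For BYBX against DMSO the median change of all tested entries was 0.34 with the same total and -0.44 with centring, in place of 0.84. The entries were then 3672 higher and 756 lower, and 1696 higher and 4040 lower, in place of 6000 and 3. Wtap (-0.74 and -1.13) and Ythdf3 (-0.71 and -1.13) were called lower with BYBX on both scales. Mettl14 (0.90) and Ythdf1 (0.77) were called higher with the same total, and with centring no m6A gene was higher and 5 were lower. For BYBX against GV the median change was -0.17 and 0.04, in place of -0.99, with 488 higher and 1222 lower, and 1397 higher and 1250 lower, in place of 29 and 6370. There Wtap was called higher on both scales (0.93 and 0.97, adjusted p = 0.024 and 0.017), Fto with centring alone (0.80), and no m6A gene was lower.

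**Figure D5:**
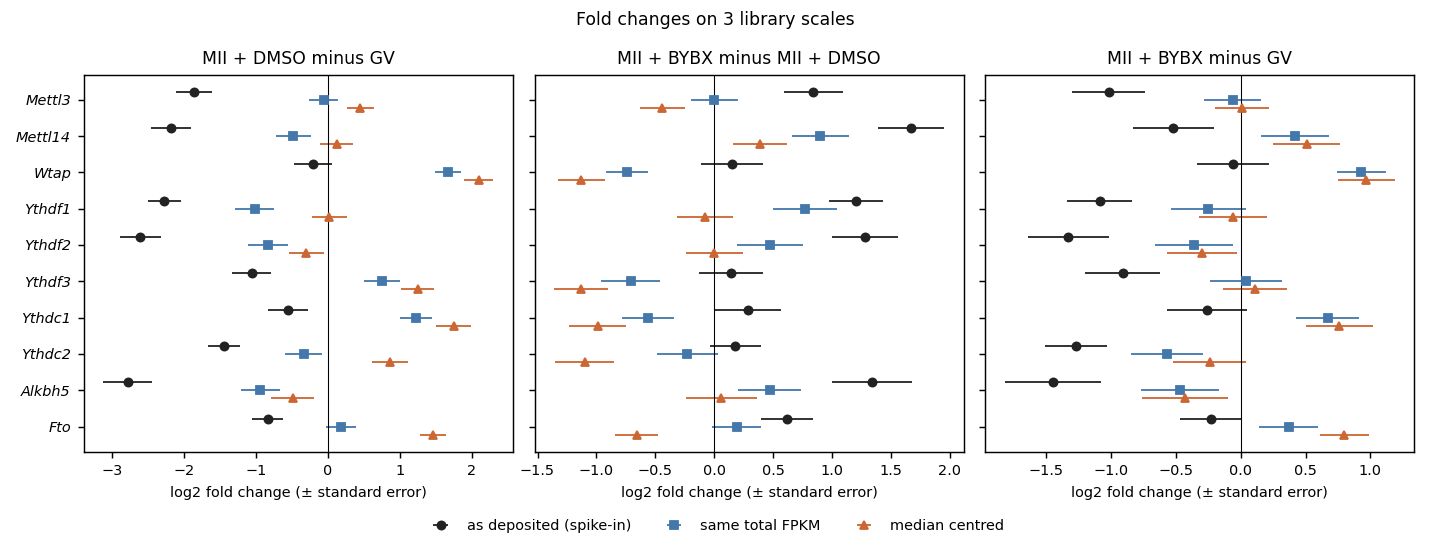
The log2 fold change with its standard error for each gene in the 3 comparisons, on the deposited spike-in scale (circles), with every library at the same total FPKM (squares) and with median centring (triangles). Wtap moves from -0.21 to 1.67 and 2.10 in MII with DMSO against GV and has the largest value of the 10 genes in that comparison on each scale.

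The other genes of the pathway were counted from lists of 36 genes, of which 29 passed the filter. From GV to MII with DMSO 27 fell and none rose, with BYBX 23 were higher than with DMSO and none was lower, and 22 were lower with BYBX than in GV and none was higher, by limma. Beside these counts stand 88.3%, 65.2% and 69.2% of all tested entries, and the lists were near those shares with this filter. Their median log2 fold changes were -1.78, 0.87 and -0.89, against -1.83, 0.84 and -0.99 over all tested entries.

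Of 5 further subunits of the writer complex, 4 fell to MII with DMSO (88.3% of all entries) and 3 were higher with BYBX (65.2% of all entries). The RNA-binding subunits Rbm15 (10.2, 2.95 and 6.42 FPKM in GV, MII with DMSO and MII with BYBX) and Rbm15b (10.8, 2.11 and 4.00 FPKM) and the ubiquitin ligase Cbll1 (5.91, 1.17 and 3.26 FPKM) moved in both. Virma, the scaffold of the complex, fell from 15.2 to 8.02 FPKM (limma adjusted p = 0.0071) and was at 10.0 FPKM with BYBX (adjusted p = 0.32). The remaining subunit, Zc3h13, gave 18.3, 12.3 and 19.7 FPKM, and neither difference was called (adjusted p = 0.15 and 0.21).

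The 6 other methyltransferase genes each fell to MII with DMSO, as did 88.3% of all entries, and each was higher with BYBX, as were 65.2%. They were Mettl16, which methylates U6 snRNA (10.7, 1.83 and 4.87 FPKM in GV, MII with DMSO and MII with BYBX), the rRNA enzymes Mettl5 (6.04, 0.0466 and 1.54 FPKM) and Zcchc4 (5.16, 0.589 and 2.04 FPKM), the Mettl5 partner Trmt112 (31.6, 15.3 and 26.1 FPKM), the cap enzyme Pcif1 (6.67, 1.02 and 3.41 FPKM) and Mettl4 (8.13, 0.970 and 2.93 FPKM). Mettl5 had the largest fall of the list (-2.74, SE 0.20, limma adjusted p = 1.8e-08), and Trmt112 the smallest (-1.02, SE 0.27, adjusted p = 0.0032). Mettl5 passed the filter mainly by its GV level and was near the floor in MII with DMSO, so its fall is not independent of the filter. The limma adjusted p for BYBX against DMSO ran from 1.1e-04 for Mettl5 to 0.03 for Trmt112.

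Of 18 other proteins reported to read m6A, 15 were tested, 14 fell to MII with DMSO and 12 were higher with BYBX, where all entries gave 88.3% and 65.2%. The highest in GV were Igf2bp2, a stabiliser of marked mRNA (135, 18.4 and 42.3 FPKM in GV, MII with DMSO and MII with BYBX), the nuclear Hnrnpc (135, 40.7 and 68.3 FPKM) and Fxr1 (91.5, 6.97 and 20.1 FPKM). The translation factor subunits Eif3h (36.1, 0.445 and 7.92 FPKM) and Eif3b (25.1, 0.403 and 8.89 FPKM) were far lower in MII with DMSO and partly higher with BYBX. Eif3a (12.6, 3.01 and 6.04 FPKM) changed about as much as the median of all tested entries (-1.83 and 0.84). The export receptor Nxf1 (38.1, 0.665 and 9.91 FPKM) and Fxr2 (20.7, 0.482 and 12.7 FPKM) had log2 fold changes of -4.54 and 2.70 and of -3.89 and 3.01, beside -4.68 and 2.61 for Eif3h, -4.21 and 2.79 for Eif3b and -1.78 and 0.82 for Eif3a. Snd1, Ago2, Hnrnpa2b1 and Prrc2a were also called higher with BYBX. Prrc2a was just inside the threshold (0.70, SE 0.29, limma adjusted p = 0.05), with BYBX libraries at 2.78 and 0.481 FPKM. The second of these lay within the DMSO range (0.384 to 0.559 FPKM). Prrc2a passed the filter partly through the first, so this call is not independent of the filter. The fall of Prrc2a to MII with DMSO was the one not called (adjusted p = 0.064).

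Of the genes that supply the methyl donor, 3 of 4 were tested, and these 3 fell to MII with DMSO, beside 88.3% of all entries. Mat2a (32.9, 9.97 and 18.9 FPKM), which makes S-adenosylmethionine, and Ahcy (6.32, 0.576 and 1.84 FPKM), which clears its product, were higher with BYBX than with DMSO. These are 2 of the 3, beside 65.2% of all entries. Mat2b, the regulatory subunit, was the most abundant gene of the lists, at 1107 FPKM in GV, 665 FPKM in MII with DMSO (limma adjusted p = 0.0068) and 933 FPKM with BYBX (adjusted p = 0.067 against DMSO). The partners of Ythdc2 at meiotic entry, Meioc, Rbm46 and Xrn1, were all under the filter, with at most 1.16 FPKM in a group mean.

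For each m6A gene the entry nearest in pattern was found by the distance between log2 values over the 7 libraries, after centring each on its own mean, among entries of similar level. This is a description over 7 points that share libraries. Mettl3 was nearest to Ccdc84 (distance 0.22), Mettl14 to R3hdml (0.23) and Wtap to Cks1b (0.19), a cell cycle kinase subunit. Among the readers Ythdc1 and Ppfia1 had the shortest distance of all 10 (0.12), Ythdf1 was nearest to Card19 (0.30), Ythdf2 to Strada (0.29), Ythdf3 to Rnf2 (0.23) and Ythdc2 to Cflar (0.33). Alkbh5 was nearest to Tcstv1 (0.29), one of a family of similar copies whose own level is uncertain, and Fto to Pign (0.25). Median distances to the candidates compared ran from 1.12 to 2.24. Each nearest entry was the smallest of 437 to 3367 distances, so a small value follows from the search itself.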

How the data were processed

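The 7 Smart-seq2 libraries were deposited as 1 table of FPKM each. The authors trimmed reads with Trim Galore 0.6.7, aligned them to mm10 with HISAT2 2.2.1, quantified genes on UCSC models from uniquely mapped reads with Cufflinks 2.2.1, and scaled the FPKM by ERCC spike-in and by the GV samples of a batch. Scaling factors and the batch of a library are not given in the sources used here, so no within-batch value could be had, and no ERCC entry is listed. Depth is unknown, and the number of libraries limits the precision.

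Of 25912 entries, 4 with a missing value were left out. Entries with a mean of the 3 group means of at least 1 FPKM (9202) were compared with limma 3.58.1 (R 4.3.3, intensity trend) on log2(FPKM + 1), in 1 fit of the 3 group means to 7 libraries (4 residual degrees of freedom), and Benjamini-Hochberg adjustment over all tested entries. An entry high in GV alone can pass this filter, so falls from GV are favoured among the tested entries. An entry high with BYBX can pass it in the same way. Fold changes on this scale understate those of low genes, and n-fold values are ratios of mean FPKM. Percentiles of levels are among the 18497 entries over 0 in any library. Ratios were compared by exact permutation tests. Motifs and positions came from GENCODE vM21 (GRCm38, equal to mm10), matched by symbol. Python 3.11.15, numpy 2.4.6, pandas 2.3.3 and matplotlib 3.10.9 were used.

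The 10 genes and all lists were chosen with earlier results of these data known. Genes of the wider lists were named where called between the MII groups or among the 3 highest in GV of their list, and Virma, Zc3h13, Mat2b and the Ythdc2 partners beyond that. Alternatives were a pseudocount of 0.1, a filter at 5 FPKM or none, other library scales, a block for the replicate number, 2-group fits, no trend, a minimum of 2-fold, and leaving out each library.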

Additional observations from a re-analysis of the deposited data

How the results depend on the processing

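The scale on which libraries were set equal mattered most. With the same total FPKM and with median centring, the m6A genes called were 3 and 5 higher and 3 and 0 lower for MII with DMSO against GV (0 and 8 as reported), 2 and 0 higher and 2 and 5 lower for BYBX against DMSO (6 and 0), and 1 and 2 higher and 0 and 0 lower for BYBX against GV (0 and 6). For the wider lists they were 6 and 15 higher and 12 and 7 lower (0 and 27), 8 and 5 higher and 1 and 8 lower (23 and 0), and 1 and 3 higher and 4 and 3 lower (0 and 22). All tested entries gave 2141 and 4494 higher and 4557 and 2456 lower (25 and 8127), 3672 and 1696 higher and 756 and 4040 lower (6000 and 3), and 488 and 1397 higher and 1222 and 1250 lower (29 and 6370). Signs turned for MII with DMSO against GV at Wtap (1.67 and 2.10), Ythdf3 (0.75 and 1.25), Ythdc1 (1.23 and 1.75) and Fto (0.18 and 1.46), and with centring alone at Mettl3 (0.45), Mettl14 (0.12), Ythdf1 (0.02) and Ythdc2 (0.86). For BYBX against DMSO they turned at Mettl3 (-0.0027 and -0.44), Wtap (-0.74 and -1.13), Ythdf3 (-0.71 and -1.13), Ythdc1 (-0.56 and -0.99) and Ythdc2 (-0.23 and -1.10), and with centring at Ythdf1 (-0.08) and Fto (-0.66). For BYBX against GV they turned at Mettl14 (0.42 and 0.51), Wtap (0.93 and 0.97), Ythdf3 (0.04 and 0.11), Ythdc1 (0.67 and 0.76) and Fto (0.37 and 0.80), and with centring at Mettl3 (0.01). The same total divides out the spike-in scale by construction. Centring came after the pseudocount of 1 had been added on the spike-in scale, so it does this only in part for low genes, such as Fto and Ythdc2.

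A filter at 5 FPKM leaves fewer genes to test: 10 entries higher and 4842 lower for MII with DMSO against GV, 3686 higher for BYBX against DMSO, 15 higher and 3779 lower for BYBX against GV, 5 m6A genes lower in MII with DMSO, and 15 higher and 14 lower genes of the wider lists in the comparisons of BYBX with DMSO and with GV. With no filter, 18497 entries were tested, of which 21 rose and 12025 fell from GV to MII with DMSO. For BYBX against DMSO 5782 were then higher and 3 lower, and for BYBX against GV 58 were higher and 8336 lower. The m6A genes called without a filter were 8 lower, 5 higher and 6 lower in the same order. At a minimum of 2-fold, 8 entries were above GV in MII with DMSO, 3875 higher and 1 lower for BYBX against DMSO, 18 higher for BYBX against GV, and 10 and 10 genes of the wider lists remained by count. With a pseudocount of 1 the difference in the log2 ratio of Ythdf2 to Ythdf1 turned to -0.32 for MII with DMSO against GV and to 0.08 for BYBX against DMSO, and that of Ythdc1 to Ythdc2 to 0.11 for BYBX against DMSO.

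Leaving out 1 library at a time gave 9 to 52 entries higher and 7248 to 8186 lower for MII with DMSO against GV, 5095 to 6095 higher and 3 to 15 lower for BYBX against DMSO, and 13 to 93 higher and 4747 to 6404 lower for BYBX against GV. Of the m6A genes 8 remained called by count in each for MII with DMSO against GV, 3 to 6 were higher with BYBX than with DMSO (3 without BYBX library 1), and 4 to 7 lower with BYBX than in GV. Counts of the wider lists were 16 to 22 higher with BYBX than with DMSO, 0 to 1 higher and 13 to 22 lower with BYBX than in GV. Differences not called with all libraries, whose sign turned, ran, for BYBX against DMSO, from -0.09 to 0.39 (Wtap), -0.04 to 0.27 (Ythdf3), -0.04 to 0.62 (Ythdc1) and -0.17 to 0.52 (Ythdc2), and for BYBX against GV from -0.29 to 0.18 (Wtap), -0.60 to 0.07 (Ythdc1) and -0.57 to 0.12 (Fto, called at -0.57, without GV library 2). Ratio differences did so for Ythdf2 to Ythdf1 (-0.62 to 0.49) and Ythdf3 to Ythdf1 (-0.07 to 0.78), BYBX against GV, and for Ythdc1 to Ythdc2 (-1.12 to 1.12) and Alkbh5 to Fto (-0.26 to 0.52), BYBX against DMSO.

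No label says that a replicate number marks a shared batch or animal. The deviations of same-numbered libraries from their group means correlated at 0.487 and 0.282 between GV and MII with DMSO and below 0 in the other pairs (-0.601 to -0.33), which does not show a pairing over the 3 groups, and a shared batch was not tested. As a replicate block, where MII with DMSO library 3 has no partner, it gave 14 entries above GV in MII with DMSO, 5 m6A genes higher with BYBX than with DMSO, Mettl3 at 0.75 (adjusted p = 0.061) and Ythdf3 at -0.04. Causes of changes under the alternatives were not tested beyond what their construction shows.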
